A study of Mus musculus with 6 samples.

Results

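The p53 gene and 7 genes that act back on the p53 protein were measured in tongue epithelium of mice with and without a keratinocyte deletion of Ire1α. The 8 genes were chosen by name, with earlier results of these data known, from a table of 55421 genes, and all 8 passed the filter on low values. KO mice carried K14CreERT2, a Cre recombinase that tamoxifen switches on and that the keratin 14 promoter restricts to basal keratinocytes, together with floxed Ire1α alleles (K14CreERT2 IRE1 F/F), and WT mice were littermates with the floxed alleles alone (IRE1F/F). Each group had 3 mice, and every mouse was given tamoxifen daily for 4 days, with harvest on day 5. Ire1α (Ern1) senses unfolded protein in the endoplasmic reticulum, and the study's title sets the question of its part in renewal and differentiation of the lining of tongue and esophagus. The labels give neither age nor sex. Since active Cre was present in KO mice only, the loss of Ire1α and the activity of Cre cannot be told apart in this design.

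p53 is a transcription factor that is held low in unstressed cells by rapid breakdown of the protein, so that its activity is set mostly after translation and not by its mRNA. Mdm2, a ubiquitin ligase, marks p53 for that breakdown and is itself switched on by p53, which closes a negative loop. Other targets of p53 also bend its activity, by removing phosphates from it, by changing Mdm2 or Akt activity, or by helping p53 to act. In the data, Ccng1, Trp53inp1, Mdm2 and Zmat3 were higher in KO, between 2.53-fold and 4.88-fold by group means. Phlda3 lay higher in every KO library by a smaller margin, while Trp53, Mdm4 and Ppm1d had overlapping groups.

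p53 binds DNA at pairs of a 10-base half-site, and promoter sequence of the members, from RefSeq on GRCm38.p6, was searched on both strands for the p53 half-site consensus. The windows run from 250 bases before to 50 bases after an annotated transcription start and were at hand for 6 members, with 7 windows in all. Trp53inp1 and Zmat3 had no entry. An exact half-site stood in the window of Mdm2, Ccng1, Trp53 and Ppm1d, and in neither window of Mdm4 nor in that of Phlda3. Of all 32851 windows of the genome, 8.36% hold one. The stretches before the start are shown for the 4 genes with a match, which span both members that rose and members that did not. They run 5′ to 3′ on the strand of the gene, with the half-site in capitals. By the GENCODE coordinates given below, Ccng1 and Ppm1d begin upstream of these RefSeq starts, so the last bases of their stretches lie inside the gene. The last bases of the window were found in a sense transcript of the gene for 4 of the 6 members.
Ccng1 (chr11:40755287-40755536, minus strand): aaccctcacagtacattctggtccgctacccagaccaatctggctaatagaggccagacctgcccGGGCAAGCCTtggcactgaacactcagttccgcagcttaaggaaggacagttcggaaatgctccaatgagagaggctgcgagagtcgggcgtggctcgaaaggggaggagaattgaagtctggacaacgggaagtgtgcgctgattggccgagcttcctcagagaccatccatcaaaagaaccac
Mdm2 (chr10:117710759-117711008, minus strand): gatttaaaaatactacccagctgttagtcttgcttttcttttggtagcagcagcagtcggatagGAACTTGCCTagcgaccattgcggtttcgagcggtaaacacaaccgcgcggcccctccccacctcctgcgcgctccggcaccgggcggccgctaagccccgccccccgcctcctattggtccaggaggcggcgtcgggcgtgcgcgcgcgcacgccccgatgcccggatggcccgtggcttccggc
Trp53 (chr11:69580109-69580358, plus strand): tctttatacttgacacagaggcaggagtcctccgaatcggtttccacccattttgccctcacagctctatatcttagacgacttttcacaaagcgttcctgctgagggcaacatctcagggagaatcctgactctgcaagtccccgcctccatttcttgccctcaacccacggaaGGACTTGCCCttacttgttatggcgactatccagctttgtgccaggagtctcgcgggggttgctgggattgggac
Ppm1d (chr11:85311004-85311253, plus strand): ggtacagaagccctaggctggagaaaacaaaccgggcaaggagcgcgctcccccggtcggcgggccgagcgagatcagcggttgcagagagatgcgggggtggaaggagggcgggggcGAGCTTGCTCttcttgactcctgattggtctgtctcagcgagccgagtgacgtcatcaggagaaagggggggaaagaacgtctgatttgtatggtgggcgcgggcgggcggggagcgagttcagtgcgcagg

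In Ccng1 the half-site GGGCAAGCCT begins 185 bases before the start and directly follows 10 bases that fit the same consensus but for 1 position, so that AGACCTGCCCGGGCAAGCCT forms a pair with 1 mismatch. A pair with at most 1 mismatch and a spacer of up to 13 bases occurs in 1.09% of all windows, and in none of the other member windows. The half-site of Mdm2 lies from 186 to 177 bases before the start of its upstream promoter. The known p53 sites of mouse Mdm2 lie in its first intron, outside this window. In Ppm1d and Trp53 the half-sites begin 132 and 75 bases before the start. A match of letters is a description and says nothing of whether p53 was bound in these tissues.

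**Figure D1:**
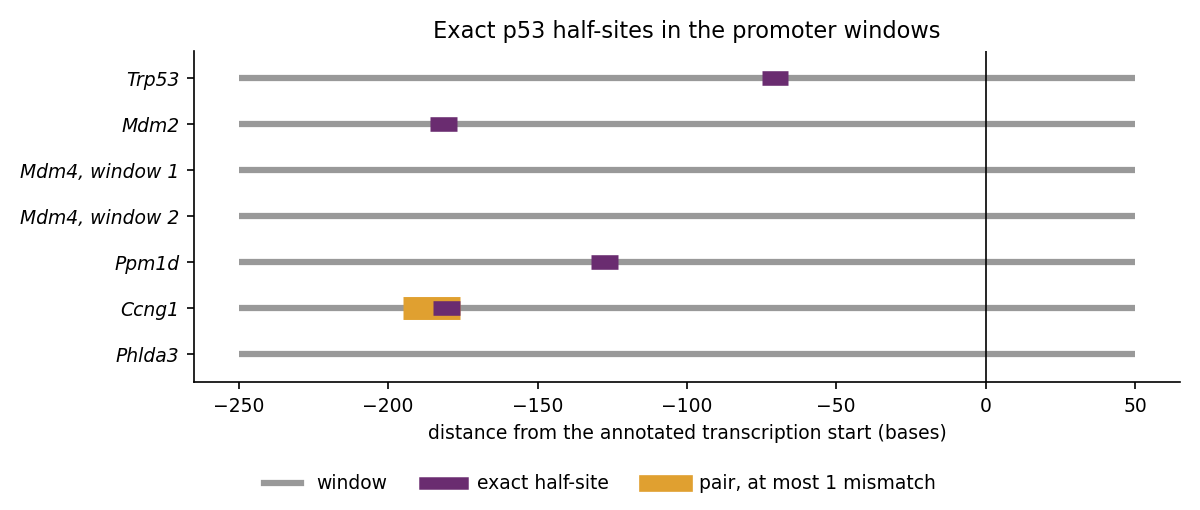
Position of exact p53 half-sites (purple) and of a pair of half-sites with at most 1 mismatch (orange) in the promoter windows of 6 members, against distance from the annotated transcription start in bases. Matches stand in Trp53, Mdm2, Ppm1d and Ccng1, and the pair in Ccng1 alone of these windows.

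Values are normalised read counts from libraries that read the 3′ end of each mRNA, with 4606309 to 6286153 reads per library, and group values are means ± SD over n = 3 mice. KO was compared with WT in 1 limma fit over 10987 genes, in which 1.22% of genes were called higher and 0.583% lower at an adjusted p under 0.05. Of the 8 members, 4 were called higher and 0 lower. Because the members were picked with this contrast known, their calls, fold changes and intervals are descriptions, and no p-value is given for them. Fold changes were taken as differences of log2(value + 1), which understates them for sparsely read genes, and carry a standard error (SE). In bulk tissue fewer cells of a type and less RNA per cell cannot be told apart. In KO libraries 5 members stood wholly above WT, as did 9.84% of all genes tested. With edgeR the same 4 members were called higher, against 1.14% of all genes. DESeq2 called those 4 and Phlda3, against 1.97% of all genes.

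Trp53, the gene for p53 itself (chromosome 11, 69580359 to 69591873, plus strand, GRCm38 in GENCODE M21), was sparsely read. It gave 32.5, 47.4 and 30.5 in KO replicates 1 to 3, against 33.9, 34.0 and 14.4 in WT replicates 1 to 3. The groups overlap, with the lowest value in WT replicate 3 and the highest in KO replicate 2. These values rest on 30, 55 and 32 reads in KO and on 36, 39 and 11 reads in WT, and the exact 95% Poisson interval of WT replicate 3, which covers counting error only, spans 7.17 to 25.7. The log2 fold change was 0.48 ± 0.37 (SE), with a 95% interval from -0.34 to 1.30. Without WT replicate 3 it was 0.08, so that 1 library sets most of it. The processed pseudogene Trp53-ps is listed at 0 in all 6 libraries. How the counting treated reads that fit both copies is not given, so this does not show that Trp53 lost no reads.

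Mdm2, the p53 ubiquitin ligase (chromosome 10, 117688875 to 117710758, minus strand), gave 557, 535 and 547 in KO, against 193, 166 and 290 in WT. Every KO library lay above every WT library, and WT replicate 3 was nearest to KO. Mdm2 averaged 546 ± 10.9 in KO and 216 ± 65.2 in WT, a log2 fold change of 1.37 ± 0.21 (SE). The spread of KO libraries was smaller than the SD of 23.0 that counting alone gives at this depth, whereas in WT the spread exceeded the counting SD of 15.3. Leaving out WT replicate 2, KO replicate 1 or KO replicate 3 lost the call of Mdm2, at log2 fold changes of 1.20, 1.36 and 1.37.

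Mdm4 (chromosome 1, 132959484 to 133030561, minus strand), a relative of Mdm2 that binds p53 and pairs with Mdm2 but is a poor ligase by itself, was not called. Its values were 202, 212 and 178 in KO, against 164, 186 and 140 in WT. KO replicate 3 lay below WT replicate 2, so the groups overlap. Its log2 fold change was 0.28 ± 0.19 (SE), with a 95% interval from -0.13 to 0.69. The quotient of Mdm2 over Mdm4 normalised counts, in which the scaling of a library cancels, was 2.76, 2.52 and 3.07 in KO, against 1.18, 0.892 and 2.07 in WT. WT replicate 3 was again the WT library nearest to KO, yet below all of them. Mdm4 has 5 annotated 3′ ends among its coding transcripts and overlaps the gene Gm29257 on the opposite strand, and the labels do not say how the counting treated either.

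Ppm1d, the Wip1 phosphatase that removes activating phosphates from p53 and from the kinases above it, is a p53 target in many cells (chromosome 11, 85311244 to 85347066, plus strand). Here it gave 235, 265 and 269 in KO, against 265, 239 and 263 in WT. The groups interleave, and the means were 256 ± 18.5 in KO and 255 ± 14.2 in WT. Its log2 fold change was 0.00 ± 0.17 (SE), with a 95% interval from -0.36 to 0.37. The SD within a group was close to that of counting alone, 15.7 in KO and 16.3 in WT. Mdm2 over Ppm1d, another quotient free of library scaling, was 2.37, 2.02 and 2.04 in KO, against 0.730, 0.693 and 1.10 in WT.

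Ccng1, cyclin G1, which brings the phosphatase PP2A to Mdm2 (chromosome 11, 40748552 to 40755311, minus strand), had the largest log2 fold change of the 8 members. It gave 401, 498 and 391 in KO, against 72.6, 74.2 and 118 in WT. The lowest KO library stood 1.72 log2 units above the highest WT library, which was WT replicate 3. Ccng1 averaged 430 ± 59.3 in KO and 88.1 ± 25.5 in WT, a log2 fold change of 2.30 ± 0.22 (SE). It was called whichever library was left out, with log2 fold changes from 2.18 to 2.53.

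Trp53inp1, a protein of stress-induced nuclear bodies that helps kinases to phosphorylate p53, lies on chromosome 4 (11156431 to 11174379, plus strand). Its values were 560, 603 and 442 in KO, against 167, 179 and 167 in WT. The SD of the WT libraries was 6.87, below the 13.3 that counting alone gives, so their closeness is no measure of the spread between mice. The KO libraries were more widely spread, with an SD of 83.4 against a counting SD of 22.7. The log2 fold change was 1.63 ± 0.18 (SE), and the gene was called whichever library was left out.

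Zmat3, a zinc finger protein that binds RNA, the p53 mRNA among others (chromosome 3, 32334792 to 32366014, minus strand), gave 545, 491 and 441 in KO, against 187, 184 and 196 in WT. As for Trp53inp1, the WT SD (6.21) was below that of counting alone (14.1). The KO SD (51.9) was above it (21.9), and the groups did not overlap. The log2 fold change was 1.37 ± 0.17 (SE), and it too was called whichever library was left out.

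Phlda3, a small protein with a pleckstrin homology domain that keeps Akt from the membrane, lies on chromosome 1 (135766119 to 135769136, plus strand). It gave 393, 384 and 428 in KO, against 205, 208 and 303 in WT. KO lay above WT in all libraries, but WT replicate 3 came within 0.34 log2 units of the lowest KO value. The log2 fold change was 0.77 ± 0.19 (SE), with a 95% interval from 0.34 to 1.20, and it was not called by limma. It was called without WT replicate 3, where the log2 fold change was 0.95.

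**Figure D2:**
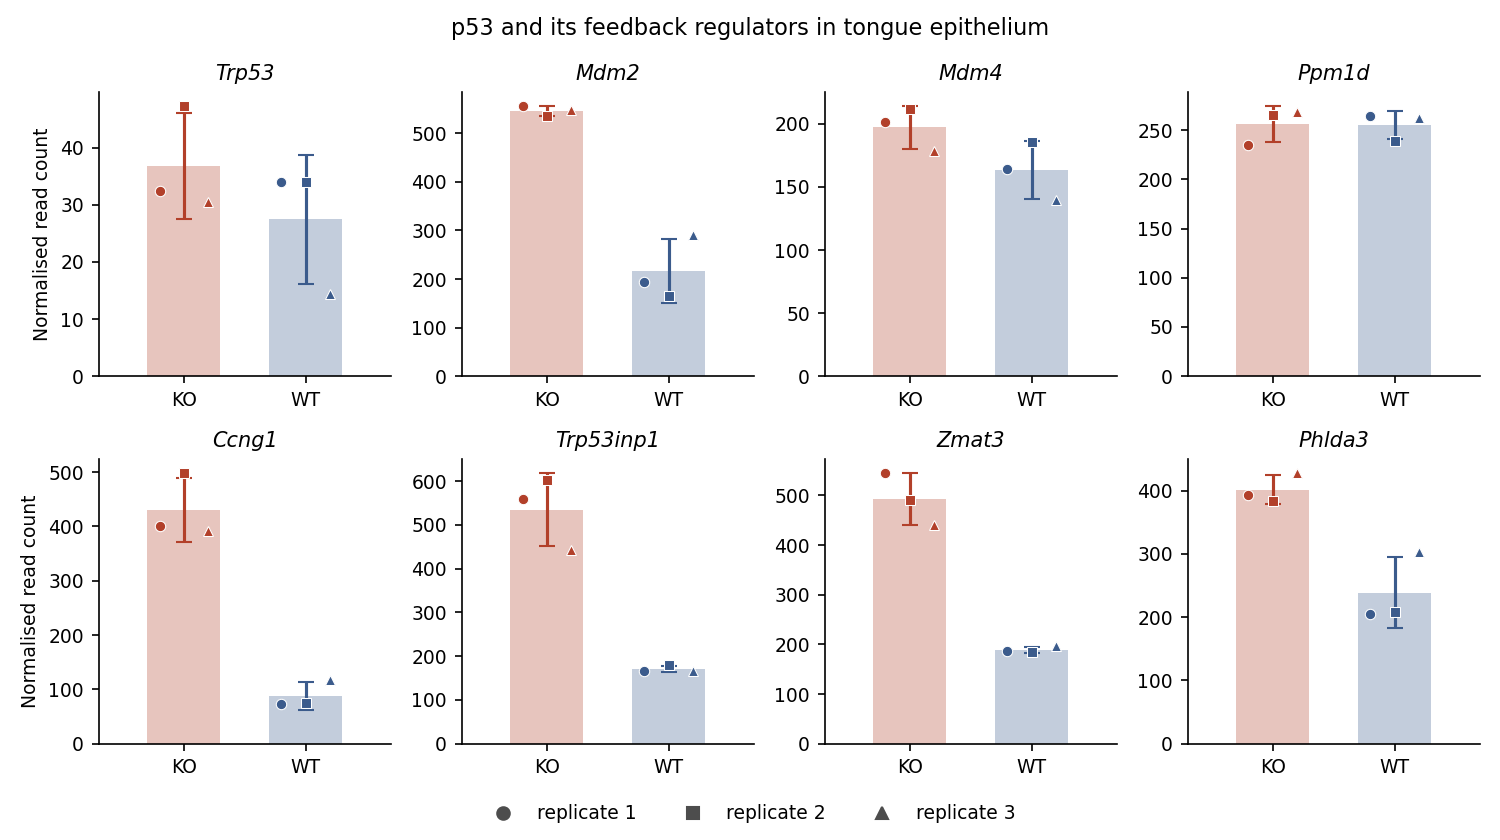
Normalised read count (linear axis from 0) of p53 and its feedback regulators in KO and WT libraries, with bars for the mean, whiskers for the SD and 1 point per mouse. For Ccng1, Trp53inp1, Zmat3, Mdm2 and Phlda3 all KO points lie above all WT points, and for Trp53, Mdm4 and Ppm1d they overlap.

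Not all members varied together within WT, where the SDs of Zmat3, Trp53inp1 and Ppm1d lay below those of counting alone. WT replicate 3 was the highest WT library for Ccng1, Mdm2, Phlda3 and Zmat3, and the lowest for Trp53 and Mdm4. In log2 units from the WT mean it stood at 0.45 for Ccng1, 0.46 for Mdm2 and 0.37 for Phlda3. It stood at 0.05 for Zmat3, -0.03 for Trp53inp1 and -0.79 for Trp53, the last resting on 11 reads. Within KO no library was extreme throughout: KO replicate 2 was highest for Ccng1, Trp53inp1, Trp53 and Mdm4, KO replicate 1 for Zmat3 and Mdm2, and KO replicate 3 for Phlda3 and Ppm1d.

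The library names in the labels have a style, digits or a letter, whose meaning is not given and which is partly aligned with genotype: KO replicate 1 and WT replicates 1 and 2 have digits. Among libraries named by digits, KO minus WT was 2.43 log2 units for Ccng1, 1.69 for Trp53inp1, 1.63 for Mdm2, 1.55 for Zmat3 and 0.93 for Phlda3. Among those named by a letter it was 1.90, 1.62, 0.90, 1.24 and 0.42 for the same genes. All KO libraries lay above all WT libraries for these 5 genes, so each difference had to be positive within each style. The sign is therefore no test of the style. KO has a single library in the digit style and WT a single library in the letter style. Mdm4 had 0.21 and 0.47, Ppm1d -0.10 and 0.02, and Trp53 -0.06 and 1.35 in the digit and the letter style, and the last value rests on the low WT replicate 3.

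The authors' deposited table of 341 called genes lists 4 of the 8 members. It holds called genes only, so the share of all genes that the authors tested cannot be read from it. The log2 fold changes in the authors' deposited table were 2.30 for Ccng1, 1.65 for Trp53inp1, 1.38 for Zmat3 and 1.34 for Mdm2. Trp53, Mdm4, Ppm1d and Phlda3 are not in the authors' deposited table. The DESeq2 run made here called 368 of 10982 genes in either direction, Phlda3 among them. The reason for the difference over Phlda3 was not tested.

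Relatives of the members by sequence family were set beside them. Of 16 relatives listed, 12 were tested, and with limma 0 were called higher and 0 lower. At an unadjusted p under 0.05 there were 3 of 12 (over all genes 13.5%), edgeR called 0, and DESeq2 called 1, Phlda1. Trp63, the p53 relative that specifies stratified epithelium, gave 394, 469 and 531 in KO, against 694, 791 and 599 in WT. All KO libraries were below all WT libraries, yet the log2 fold change of -0.58 ± 0.18 (SE) did not pass (limma adjusted p = 0.170). Trp73, the other relative, averaged 32.1 ± 10.8 in KO and 25.2 ± 9.45 in WT.

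Ccng2, cyclin G2, was not called. It gave 22.8, 109 and 44.8 in KO, against 110, 79.4 and 28.7 in WT, so that KO replicate 2 and WT replicates 1 and 2 were high, a division other than genotype (log2 fold change -0.39, 95% interval -1.64 to 0.87). Ccni had a log2 fold change of -0.34 and Trp53inp2, an autophagy factor, of -0.17. The phosphatases Ppm1a, Ppm1b, Ppm1f and Ppm1g had log2 fold changes of 0.02, -0.03, 0.67 and 0.58, and Zmat2 of 0.16. None of these passed (limma adjusted p from 0.320 to 0.974).

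Phlda1, a further pleckstrin homology protein, gave 547, 932 and 758 in KO, against 470, 370 and 454 in WT, with a log2 fold change of 0.76 ± 0.21 (SE) and no overlap (limma adjusted p = 0.123, DESeq2 adjusted p = 0.0363). Phlda2, an imprinted gene, lay the other way, at 87.8, 82.7 and 90.5 in KO, against 127, 109 and 96.6 in WT (log2 fold change -0.34, limma adjusted p = 0.510).

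**Figure D3:**
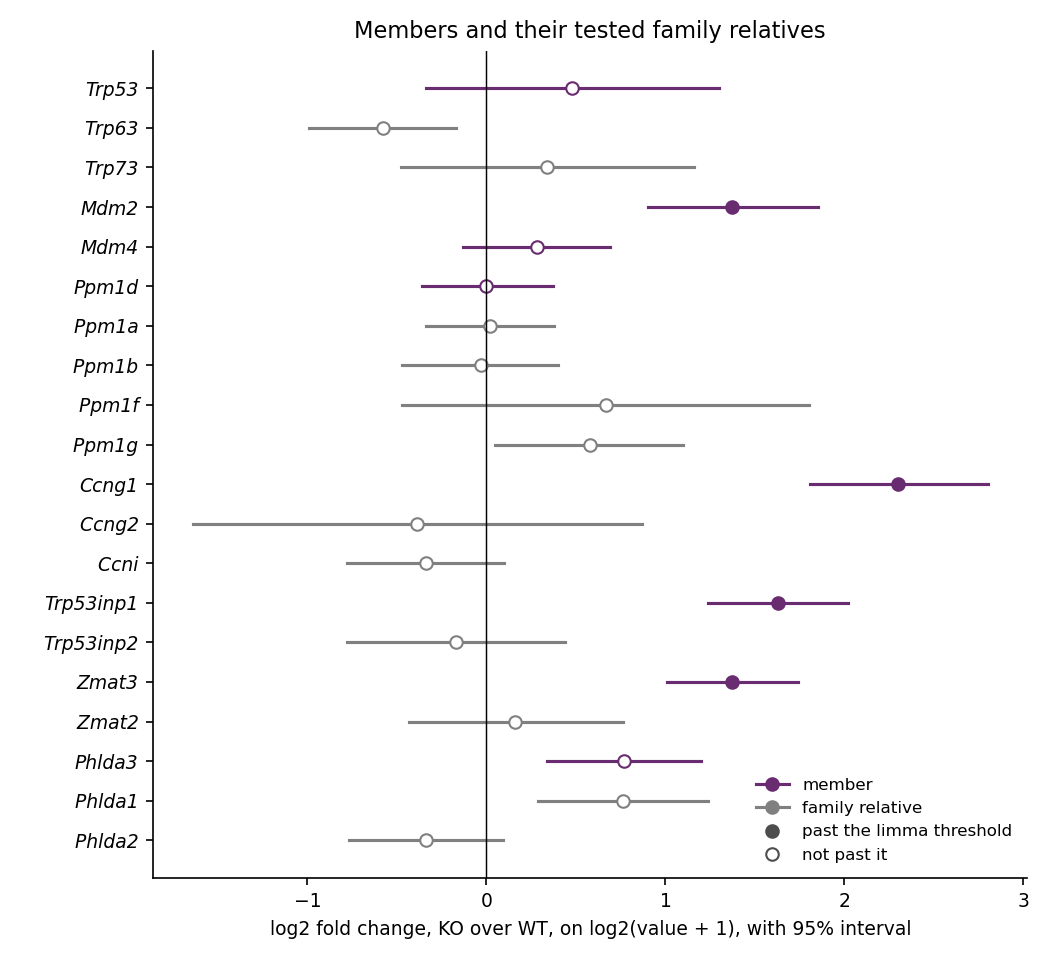
Log2 fold change of KO over WT with its 95% interval for the 8 members (purple) and their 12 tested relatives (grey), filled where past the limma threshold. The filled points are Ccng1, Trp53inp1, Mdm2 and Zmat3, and each tested relative is open.

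Above p53, a list of 28 kinases, acetylases, stabilisers and other activators had 24 tested genes. With limma 0 of them rose and 1 fell, beside 1.22% higher and 0.583% lower of all genes. The gene that fell was Rpl5, a ribosomal protein that binds Mdm2 when ribosome assembly fails. It averaged 368 ± 62.0 in KO and 691 ± 95.1 in WT (log2 fold change -0.92 ± 0.19 (SE), limma adjusted p = 0.0395). Among the 6 fits that leave out 1 library its call was kept only without KO replicate 2, and ribosomal protein genes have near-identical processed copies that can share reads, so its level is uncertain. Rpl11, its partner in binding Mdm2, was 3615, 3189 and 4214 in KO, against 5958, 797 and 1537 in WT. These WT values span a wide range that holds all KO values. Usp7, the deubiquitinase of Mdm2 and p53, averaged 1239 ± 102 in KO and 1298 ± 93.0 in WT (log2 fold change -0.07, 95% interval -0.43 to 0.29). The median log2 fold change of the list was 0.00, against -0.01 over all genes tested.

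Of 24 further ubiquitin ligases and inhibitors of p53, 22 were tested, and 0 rose and 0 fell with limma. At an unadjusted p under 0.05 there was 1 of 22 (over all genes 13.5%), and 0 of them rose with edgeR or with DESeq2. Csnk1a1, casein kinase 1 alpha, which works with Mdm2 and Mdm4, averaged 3570 ± 84.0 in KO and 3189 ± 273 in WT. Kmt5a, a methyltransferase for histone H4 and p53, averaged 943 ± 268 in KO and 1112 ± 308 in WT. They differed by 0.17 and -0.24 log2 units (limma adjusted p = 0.746 and 0.750), and the median of the list was 0.11.

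Like the members, the gene lists above and below p53 were chosen with earlier results of these data known. Their counts and adjusted p-values are therefore descriptions. Below p53, 3 lists of known targets other than the members held 57 genes. Of 49 tested, 16 rose, 1 fell and 32 did not pass, beside 1.22% higher and 0.583% lower of all genes, and the median log2 fold change was 0.48 against -0.01 over all genes. Among the 10 tested genes of cell cycle arrest 3 rose. Cdkn1a (p21), which blocks cyclin-dependent kinases, averaged 15032 ± 2567 in KO and 5863 ± 479 in WT (log2 fold change 1.35, limma adjusted p = 0.0106). Psrc1, a microtubule-binding protein, averaged 79.0 ± 15.0 in KO and 17.4 ± 7.87 in WT, and Plk2, a polo-like kinase, 134 ± 29.0 in KO and 50.7 ± 12.9 in WT (limma adjusted p = 0.0139 and 0.0189). Sfn, the 14-3-3 sigma protein, and Gadd45b, a stress-induced protein, differed by 0.56 and -0.31 log2 units (limma adjusted p = 0.622 and 0.526). WT replicate 3 had 20718 for Sfn, within the KO range of 10662 to 20835.

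Among 16 tested genes of cell death 6 rose. Pmaip1 and Bbc3, which encode the killer proteins Noxa and Puma, averaged 27.2 ± 12.6 and 33.9 ± 5.51 in KO, against 1.33 ± 0.402 and 9.34 ± 2.17 in WT (limma adjusted p = 0.00838 and 0.0279). The WT value of Pmaip1 stands at 1 or 2 reads a library, so its log2 fold change of 3.52 depends on the pseudocount. Eda2r and Tnfrsf10b, both of the TNF receptor family, stood higher by 2.51 and 2.24 log2 units (limma adjusted p = 0.00380 and 0.00305). Aen, a nuclease, and Apaf1, the apoptosome scaffold, had 1.74 and 1.29 (limma adjusted p = 0.00984 and 0.0399). Perp, a desmosome protein of stratified epithelium and a p53 target elsewhere, averaged 12305 ± 463 in KO and 12396 ± 2396 in WT (log2 fold change 0.01, 95% interval -0.49 to 0.50). Pdrg1 had a log2 fold change of 0.48 (limma adjusted p = 0.447).

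Among 23 tested genes of repair, metabolism and secretion 7 rose and 1 fell. Polk, a translesion DNA polymerase, averaged 146 ± 30.4 in KO and 38.9 ± 7.42 in WT, and Ercc5, a nuclease of nucleotide excision repair, 204 ± 31.4 in KO and 78.7 ± 8.86 in WT (limma adjusted p = 0.00381 and 0.00798). Ak1, adenylate kinase, and Dcxr, a carbonyl reductase, were higher by 2.26 and 2.13 log2 units (limma adjusted p = 0.00151 and 0.00477). Gdf15, a secreted stress cytokine, averaged 45.2 ± 12.5 in KO and 3.60 ± 2.38 in WT (limma adjusted p = 0.00798). Its WT values rest on 5, 1 and 4 reads. Among the 6 fits that leave out 1 library its call was lost only without KO replicate 1. Dglucy, a D-glutamate cyclase, and Sesn2, a sestrin that restrains mTOR, were higher by 1.53 and 0.93 log2 units (limma adjusted p = 0.0152 and 0.0350). Igfbp3, an IGF-binding protein, fell to 33.2 ± 9.06 in KO, against 104 ± 41.1 in WT (log2 fold change -1.58, limma adjusted p = 0.0387). Rps27l and Foxo3 had 0.35 and 0.30 (limma adjusted p = 0.595 and 0.563).

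**Figure D4:**
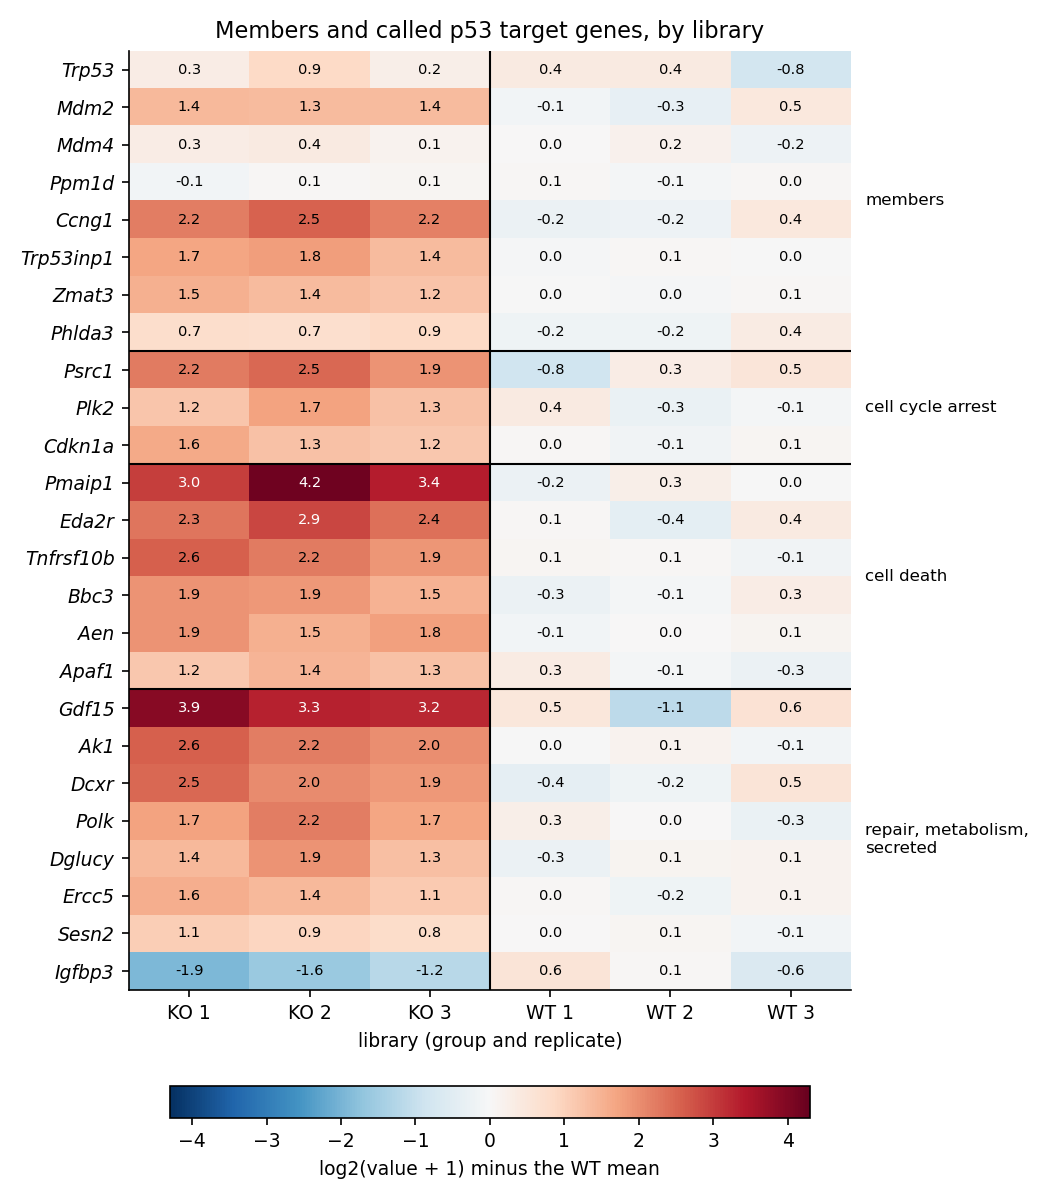
Log2(value + 1) minus the WT mean in each library for the 8 members and for the 17 called p53 target genes outside them, grouped by list, with KO libraries on the left. In Trp53, Mdm4 and Ppm1d the KO and WT columns overlap, with Trp53 at 0.86 in KO replicate 2 and at -0.79 in WT replicate 3, and Igfbp3 is the 1 called target that is lower in KO.

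Of the 18 pathway genes called outside the members, 6 were called whichever library was left out, namely Eda2r, Tnfrsf10b, Ak1, Dcxr, Polk and Ercc5. Of the 6 fits that leave out 1 library, Sesn2 kept its call in 0. Bbc3, Apaf1, Igfbp3 and Rpl5 kept it in 1, and Plk2 and Dglucy in 2. Cdkn1a kept it in 3, Psrc1, Pmaip1 and Aen in 4, and Gdf15 in 5. How many of all called genes held in every such fit was not counted. The number that rose, 16 with all libraries, was 10 without WT replicate 2 or without KO replicate 2, and 7 without KO replicate 1 or without KO replicate 3. Over all genes tested, 134 were called higher with all libraries, and 64, 68, 48 and 49 in these fits, in the same order. When the name style entered the fit as a covariate, 10 pathway genes rose, beside 61 of all genes tested.

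For 3 members the genes with the nearest pattern were sought among 6848 other genes with a mean of at least 50, by the root mean square difference of mean-centred log2 values over the 6 libraries. Nearest to Ccng1 were Mgmt (0.20 log2 units), Ddit4l (0.22), Sox9 (0.24) and Dcxr (0.25), against a median of 1.20 over all candidates. Mgmt, for example, gave 317, 347 and 315 in KO, against 69.7, 80.3 and 103 in WT. Nearest to Mdm2 were Gda (0.12), Krt17 (0.13), Gfer (0.13) and Cnn3 (0.15), against a median of 0.76. Gda gave 334, 320 and 306 in KO, against 140, 100.35 and 171 in WT, with WT replicate 3 the highest WT library as for Mdm2. Nearest to Trp53 were 2010110G14Rik (0.13), 1700037H04Rik (0.15), Pcgf3 (0.16) and Dusp7 (0.16), against a median of 0.57. The Trp53 profile itself rests on 11 to 55 reads per library, so counting error blurs its likenesses. The lowest of 6848 distances lie below the median by construction. All of these likenesses rest on the same 6 libraries and are descriptions.

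The tissue label was checked with markers. Of 19 keratinocyte markers, 18 were tested, 2 were called higher by limma (Krt17 and Itgb4) and 1, Lgals7, was listed at 0. With edgeR 3 were called higher (over all genes 1.14%), and with DESeq2 8 (over all genes 1.97%). In KO libraries 9 of the 18 stood wholly above WT, against 9.84% of all genes, while Krt15 and Trp63 stood wholly below. The summed level of the keratinocyte markers was 876627 to 1183920 in KO and 651926 to 846886 in WT. Skeletal muscle markers (16, with Acta1 and Tnnc2 at 0) summed to 1161 to 3906 in KO, the highest in KO replicate 1, and to 896 to 1141 in WT. Fibroblast markers (12, with Dpt at 0) summed to 354 to 1512 in KO and 1535 to 2066 in WT, and 1 of 5 tested, Dcn, fell (530, 195 and 544 in KO, against 1658, 1329 and 1856 in WT). Without Dcn the fibroblast sums were 983, 159 and 204 in KO, against 216, 206 and 210 in WT. Most of the lower KO sum is thus that of Dcn. For the rest KO replicate 1 is high, while KO replicates 2 and 3 lie below all WT libraries. The median log2 fold change of the 5 tested fibroblast markers was 0.77. Erythrocyte markers (5, with Alas2 at 0) summed to 44.0 to 1170 in KO, the highest again in KO replicate 1, and to 229 to 479 in WT. Endothelial markers (9) summed to 51.5 to 74.8 in KO and 20.9 to 45.2 in WT, and leukocyte markers (15, with Trdc at 0) to 628 to 1062 in KO and 573 to 923 in WT. Melanocyte markers (6, with Tyrp1 at 0) summed to 69.6 to 102 in KO and 32.3 to 74.5 in WT. Of the 2 tested, 1 rose, Mlana, with 26.0, 15.5 and 18.1 in KO, against 0, 0 and 1.31 in WT, where no library had more than 1 read (limma adjusted p = 0.0135). Taste bud (10), salivary gland (9) and nerve and glia (8) markers summed to at most 551 in KO and 573 in WT, and the 2 tested, Amy1 and Mbp, did not pass (limma adjusted p = 0.633 and 0.945). The part of these other cell types in the values of the members was not tested, and without KO replicate 1 the log2 fold changes were 2.35 for Ccng1, 1.59 for Trp53inp1, 1.30 for Zmat3 and 1.36 for Mdm2. The targeted gene Ern1 gave 78.0, 117 and 123 in KO, against 102, 105 and 77.1 in WT, and since 3′ tags can lie outside the deleted part this checks nothing about the genotype.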

How the data were processed

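RNA of tongue epithelium peeled after 10 minutes of enzyme digestion at 37 °C was sequenced with a 3′-end kit (QuantSeq) in 6 libraries, 1 per mouse. Groups and replicate numbers follow the sample titles, and value columns were matched by the library names in the labels (0 unmatched). The authors deposited a normalised count per gene and library, a signal on a linear scale per the file headers. Of its values 100% were whole multiples of 1 step per library (within 0.01 of a whole read), which gave back whole reads. A step was worth 0.862 to 1.31, and the limit that a count of 0 leaves (3 reads) equals 2.59 to 3.92 of these units; it covers counting error only. The submitters' processing notes name FastQC, STAR, featureCounts and DESeq2 without versions. Build, annotation and strand setting: not given in the sources used here. A second table that the authors deposited lists called genes: per the file headers it gives a log2 fold change, a score (the Wald statistic), a p-value and a q-value. Of the 55421 gene identifiers 99.52% are in GENCODE M21, from which coordinates were taken, and 3192 have no symbol.

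Values were transformed to log2(value + 1), the filter asked for a value of 10 or more in 3 or more libraries, and limma 3.58.1 with its intensity trend (R 4.3.3) tested KO against WT, two-sided, with Benjamini-Hochberg adjustment over all genes at 0.05. edgeR 4.0.16 (quasi-likelihood, TMM) and DESeq2 1.42.0 were run on the recovered reads as alternatives. A permutation test of 3 against 3 cannot go below 0.1 and was not used. The members and gene lists were chosen with earlier results of these data known. Named are all members, all tested relatives, and of each pathway list every called gene and the 2 others with the highest mean. Genes nearest in pattern are the 4 lowest distances to Trp53, Ccng1 and Mdm2. Other settings were pseudocounts, filters, scalings, library weights, robust moderation, the name style, the replicate number and leaving out each library.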

Additional observations from a re-analysis of the deposited data

How the results depend on the processing

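The number of members called higher was 3 to 5 when 1 library was left out, 4 with the replicate number as a block and 4 or 5 under the 11 other alternatives, and 0 were called lower under any of them. Ccng1, Trp53inp1 and Zmat3 were called under every alternative. Mdm2 ranged from 1.20 to 1.60 on the log2 scale over the 6 fits that leave out 1 library and was lost in 3 of them. Phlda3 ranged from 0.67 to 0.95 in those fits and was called without WT replicate 3, with library weights (0.91) and with DESeq2 (0.76). Ppm1d, at 0.00 in the fit of all libraries, was -0.04 with the name style as a covariate, -0.03 with equal totals and -0.04 to 0.07 with 1 library left out. Pathway genes that rose, 16 in all, numbered 10 with the name style and 7 to 16 with 1 library left out. Those that fell, 2 in all, numbered 1 with the replicate block, the name style or equal totals, 3 with library weights or DESeq2, and 0 to 2 with 1 library left out. All genes called, 198, became 82 (61 higher) with the name style, 590 (317 higher, or 53.7% of calls against 67.7%) with library weights and 368 (216 higher) with DESeq2, and 68 to 186 (48 to 129 higher) with 1 library left out. The replicate numbers of the titles do not pair the mice by any label. Same-numbered libraries had correlations of -0.25, 0.03 and 0.28 in their deviations from the group means. Between libraries of different number they ran from -0.4 (KO replicate 2 with WT replicate 3) to 0.41 (KO replicate 2 with WT replicate 1). Some deviations were thus shared across genotype. No scaling moved the median log2 fold change of all genes by more than 0.1. The number of reads limits Trp53 most, at 11 to 55 per library. The causes of these differences between settings were not tested.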
